A study of Mus musculus with 6 samples.

Results

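Beside the volume-regulated anion channel, cells carry many other genes for chloride channels and transporters. Of these, 10 were followed here in cultured mouse aortic smooth muscle, as RNA and not as protein or current. The 10 genes were taken by symbol: Clcn2, Clcn3, Clcn4, Clcn5, Clcn6 and Clcn7 of the ClC family, Ano6 of the anoctamins, Ttyh3 of the tweety family, and Clic1 and Clic4 of the chloride intracellular channel family. All 10 were found among the 12389 genes of the per-library table. Primary vascular smooth muscle cells were grown by explant culture from thoracic aorta, used at passage 6 or lower and left untreated. The 3 WT libraries came from wild-type mice and the 3 KO libraries from mice with a knockout of LRRC8A, the obligatory subunit of that channel, limited to smooth muscle. The submitters call the libraries of a genotype independent biological replicates. The driver of the deletion and the age and sex of the mice are not given in the labels, and the genotype field reads wild type for every sample, so the titles set the groups.

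ClC proteins are dimers that work either as chloride channels or as exchangers of chloride for protons. ClC-2 is a channel of the cell surface, ClC-3, ClC-4 and ClC-5 are exchangers of endosomes, ClC-6 is an exchanger of late endosomes, and ClC-7 is the exchanger of lysosomes. ClC-3 was once put forward as the volume-regulated channel itself, and in vascular smooth muscle it has been studied in endosomes that hold the NADPH oxidase Nox1. Anoctamin 6 is a calcium-activated phospholipid scramblase that also passes ions. The ion channel role of tweety and CLIC proteins is disputed, and CLIC proteins resemble glutathione transferases and move between cytosol and membranes.

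None of the 10 genes passed the test of KO against WT, in which 0 of all 12363 genes tested passed. The widest differences were in Ttyh3, whose mean was higher in KO, and in Clcn5, Clcn3 and Clic4, whose means were lower. Only for Clcn5, among the 10, did all KO libraries lie below all WT libraries, as they did for 4.51% of all genes tested. None of the 10 had all KO libraries above all WT libraries, where 484 of the 12363 genes did. Values are scaled reads as deposited, that is, estimated reads divided by a factor for each library. Fold changes are limma differences of log2(value + 2) between KO and WT, a scale that shrinks changes in low genes. The limma p-values set each difference against the spread between the libraries of a genotype, drawn toward that of other genes.

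Lrrc8a, the targeted gene, checks the titles. It stood at 2578, 2194 and 1221 scaled reads in the WT libraries against 868, 672 and 506 in the KO libraries, so the level left in KO was not 0. Its log2 fold change was -1.51 (SE 0.34), at an adjusted p of 0.999 in limma, where it too missed the threshold, and at 0.045 with library quality weights (log2 fold change -1.62), where it passed. The authors' deposited table lists it at an FDR of 0.0196. Of 10 smooth muscle markers 8 were measured, and their summed level ran from 80965 to 374577 scaled reads in WT and from 82393 to 193002 in KO, with replicate 3 the highest of each genotype. The median log2 fold change of these 8 was -0.63, with 6 below 0 and 2 above, and 0 passed in limma. Of 9 epithelial and mesothelial markers 5 were measured, and their sum was 5626 to 11590 in WT and 5988, 6157 and 1104 in KO replicates 1, 2 and 3. Their median log2 fold change was -1.58, with 4 below 0 and 1 above, and 0 passed in limma. Of 9 leukocyte markers 4 were measured, at sums of 1995 to 2616 in WT and 834 to 1676 in KO, and of 8 endothelial markers 1 was measured. All 6 fibroblast markers were measured, at sums of 118365 to 148684 in WT and 159286 to 211612 in KO. The defining markers Ptprc and Pecam1 had no row in the table used here. Each gene in that table reached at least 142.8 scaled reads in some library, so a missing row need not mean no reads. The leukocyte and fibroblast sums did not overlap between the genotypes. Gene by gene this held only for Lyz2, lower in KO, and Col1a1, higher in KO. The other leukocyte and fibroblast markers overlapped, and 0 of either list passed in limma. Of all 12363 genes tested, 558 had KO below WT without overlap and 484 had KO above WT. Col1a1 made up most of the fibroblast sum, and the median log2 fold change of the 6 fibroblast markers was -0.33, with 4 below 0 (Dpt, Lum, Pi16 and Dcn) and 2 above (Col1a1 and Pdgfra), while all 4 leukocyte markers were below 0, at a median of -0.79. These sums moved beside the genes below, and their part in any difference was not tested. In bulk RNA of a culture, fewer cells of a type and less RNA per cell cannot be told apart.

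The order of the 10 genes within a library can be read only per length, here as scaled reads per kb of annotated exon, a level and not a difference. Clic1 had the highest level, at 5722 ± 1222 per kb in WT against 6257 ± 329 in KO (SD over 3 libraries). Clic4 followed at 2302 ± 203 in WT and 1797 ± 620 in KO, and Clcn7 at 1136 ± 323 and 966 ± 336. Clic1 lay above Clic4 in all 6 libraries without overlap of their ranges in either genotype. The range of Clcn7 overlapped that of Ano6 in both genotypes, and those of Clic4 and Ttyh3 in KO. Ano6 was next in WT at 742 ± 265 per kb, before Ttyh3 at 481 ± 191 and Clcn4 at 346 ± 62.2. In KO the order of the first pair was turned, with Ttyh3 at 872 ± 440 per kb and Ano6 at 671 ± 146, but their ranges overlapped in both genotypes and Ttyh3 exceeded Ano6 in only 1 KO library. Clcn5 (172 ± 19.7 in WT, 123 ± 24.5 in KO), Clcn6 (144 ± 56.0 and 147 ± 76.7), Clcn3 (96.3 ± 27.5 and 83.5 ± 49.3) and Clcn2 (85.3 ± 39.6 and 87.5 ± 10.6) had the lowest levels per kb. Among these 4, Clcn5 and Clcn6 overlapped in both genotypes, and so did Clcn6 and Clcn3, and Clcn3 and Clcn2. The exon length used was 17.1 kb for Clcn3, 11.5 kb for Clcn5, 5.93 kb for Clcn6 and 6.02 kb for Clcn2. That length joins the exons of all annotated transcripts of a gene, so the order of these genes depends on it.

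**Figure D1:**
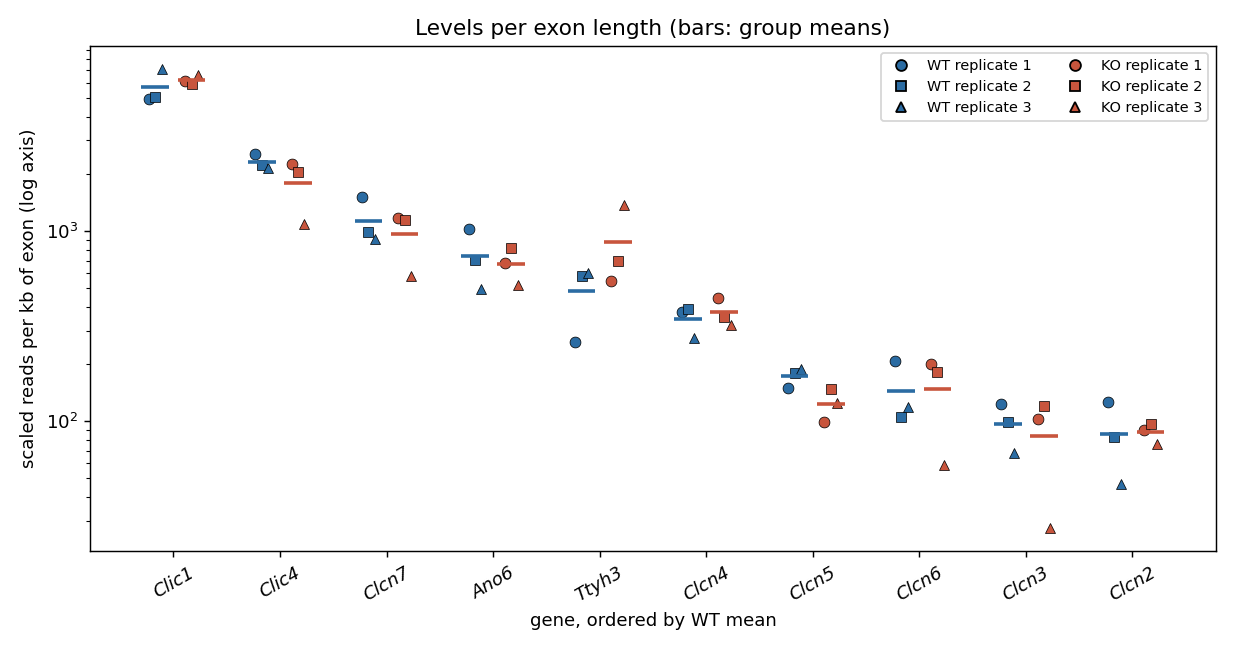
Scaled reads per kb of exon (log axis) for the 10 genes in each of the 6 libraries, WT in blue and KO in red, with horizontal bars at the group means. Clic1 lies highest in every library, and Clcn3 and Clcn2 have the lowest WT means, at 96.3 and 85.3 per kb.

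Depth was ample for every gene of the set. The lowest value was that of Clcn2 in WT replicate 3, about 358 estimated reads, where counting error alone comes to 5.29% of the value. For most of the genes the spread between libraries was far wider than that, as the values below show. Clic1 in KO was narrower, at 11256 ± 593 (SD over 3 libraries), but its own counting error was at most 1.155%.

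Clcn2, the cell surface channel (GRCm38 chromosome 16, 20702964 to 20717746), read 760, 498 and 283 scaled reads in WT replicates 1, 2 and 3, and 540, 584 and 458 in KO. The 3 KO values all lay inside the WT range. The fitted change was 0.14 on the log2 scale (SE 0.37, 95% interval -0.74 to 1.02), so a change of up to about 2.03-fold upward or to 0.600 of the WT level lay within the interval. Its sign turned without WT replicate 3, to -0.23. Its exons share 82 and 85 bases with Polr2h and Fam131a on the other strand, and no source used here says whether the counting used strand.

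Clcn3, the first of the endosomal exchangers (chromosome 8, 60910389 to 60983300) read 2091, 1684 and 1155 in WT and 1745, 2060 and 470 in KO. KO replicate 3 was the lowest of all 6 libraries by a wide margin, while the other KO libraries lay within the WT range. Its log2 fold change of -0.42 (SE 0.58, 95% interval -1.81 to 0.96) rested on that library, and without KO replicate 3 it was 0.25.

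Clcn4 (chromosome 7, 7282309 to 7300851) read 3204, 3341 and 2357 in WT and 3810, 3033 and 2761 in KO, with broad overlap. Its log2 fold change was 0.11 (SE 0.23, 95% interval -0.42 to 0.64), with an interval nearly as narrow as that of Clcn5, and its sign turned without WT replicate 3 (-0.04) or KO replicate 1 (-0.02). The antisense gene Gm45631 shares 985 bases, or 11.5%, of the exon length of Clcn4, so reads of both may have been summed.

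Clcn5, the exchanger whose loss in humans gives the kidney tubule disorder Dent disease, lies on the X chromosome (7153810 to 7319358). It read 1714, 2047 and 2145 in WT and 1130, 1690 and 1422 in KO. All 3 KO libraries were below all 3 WT libraries, but only narrowly, since KO replicate 2 at 1690 stood close to WT replicate 1 at 1714. WT averaged 1969 ± 226 and KO 1414 ± 280 (SD over 3 libraries). Of all genes tested, 4.51% had KO below WT with no overlap, and 1 of 10 here does not stand apart from that share. KO over WT gave a log2 fold change of -0.49 (SE 0.22, 95% interval -1.01 to 0.03), or 0.712 of the WT level, with an adjusted p of 0.999 in limma. The exact two-sided permutation test gave p = 0.1, which is the smallest value possible with 20 assignments. KO replicate 2 also differed in sex-linked transcripts, with 21672 scaled reads of Xist where the other 5 libraries had at most 7.11, and 1.16 of the Y-linked Ddx3y where the others had at least 1339. Without KO replicate 2 the log2 fold change of Clcn5 was -0.63, in the same direction. The part of this sex-linked difference in the Clcn5 values was not tested.

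Clcn6, of late endosomes (chromosome 4, 148004259 to 148038821), read 1233, 622 and 701 in WT and 1192, 1073 and 351 in KO. KO replicate 3 was again the lowest, and the other 2 KO values lay inside the WT range. This gave a log2 fold change of -0.09 (SE 0.52, 95% interval -1.31 to 1.14), an interval that holds a halving as well as a doubling, and its sign turned without WT replicate 1 (0.21) or KO replicate 3 (0.47).

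Clcn7, of lysosomes (chromosome 17, 25133391 to 25162104), read 7966, 5225 and 4833 in WT and 6216, 6060 and 3059 in KO. WT replicate 1 was the highest and KO replicate 3 the lowest. For Clcn7 the log2 fold change was -0.27 (SE 0.34, 95% interval -1.08 to 0.54), and without KO replicate 3 it was 0.07. Its partner Ostm1, the membrane protein that ClC-7 needs in lysosomes, is described with the related genes.

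Ano6 (chromosome 15, 95790843 to 95974751) read 12544, 8690 and 6087 in WT and 8371, 9945 and 6380 in KO. All 3 KO values fell within the WT range, and replicate 3 was the lowest of each genotype. For Ano6 the log2 fold change was -0.11 (SE 0.32, 95% interval -0.86 to 0.64), and its sign turned without WT replicate 1 (0.16) or KO replicate 3 (0.07).

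Ttyh3 (chromosome 5, 140620578 to 140649031) had the widest difference of the set. It read 1483, 3282 and 3441 in WT and 3096, 3976 and 7800 in KO. KO replicate 3 stood far above all other libraries and WT replicate 1 far below them, while KO replicate 1 lay under 2 of the WT values, so the genotypes overlapped. WT averaged 2735 ± 1088 and KO 4957 ± 2501 (SD over 3 libraries). For Ttyh3 the log2 fold change was 0.84 (SE 0.45, 95% interval -0.23 to 1.91), with an adjusted p of 0.999 in limma and p = 0.3 in the exact two-sided permutation test. It was 0.45 without WT replicate 1 and also 0.45 without KO replicate 3, which are the libraries at its extremes, and 0.34 with library quality weights.

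Clic1 (chromosome 17, 35049966 to 35058749) read 8895, 9158 and 12827 in WT and 11132, 10736 and 11901 in KO. The KO values all lay between the lower and the higher WT values. The log2 fold change was 0.15 (SE 0.22, 95% interval -0.38 to 0.67), with 0.05 without WT replicate 1, 0.07 without WT replicate 2 and 0.32 without WT replicate 3. Clic4 (chromosome 4, 135213969 to 135272814), a CLIC protein known for its part in the tube formation of endothelial cells, read 16637, 14625 and 14117 in WT and 14877, 13365 and 7182 in KO. KO replicate 3 was again far below the rest, while KO replicate 1 exceeded 2 of the WT libraries. The log2 fold change of Clic4 was -0.42 (SE 0.31, 95% interval -1.16 to 0.31), and -0.10 without KO replicate 3. Per kb, Clic1 exceeded Clic4 by 1.95-, 2.29- and 3.32-fold in WT replicates 1, 2 and 3 and by 2.73-, 2.93- and 6.05-fold in KO, where the last value belongs to the library with the low Clic4.

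**Figure D2:**
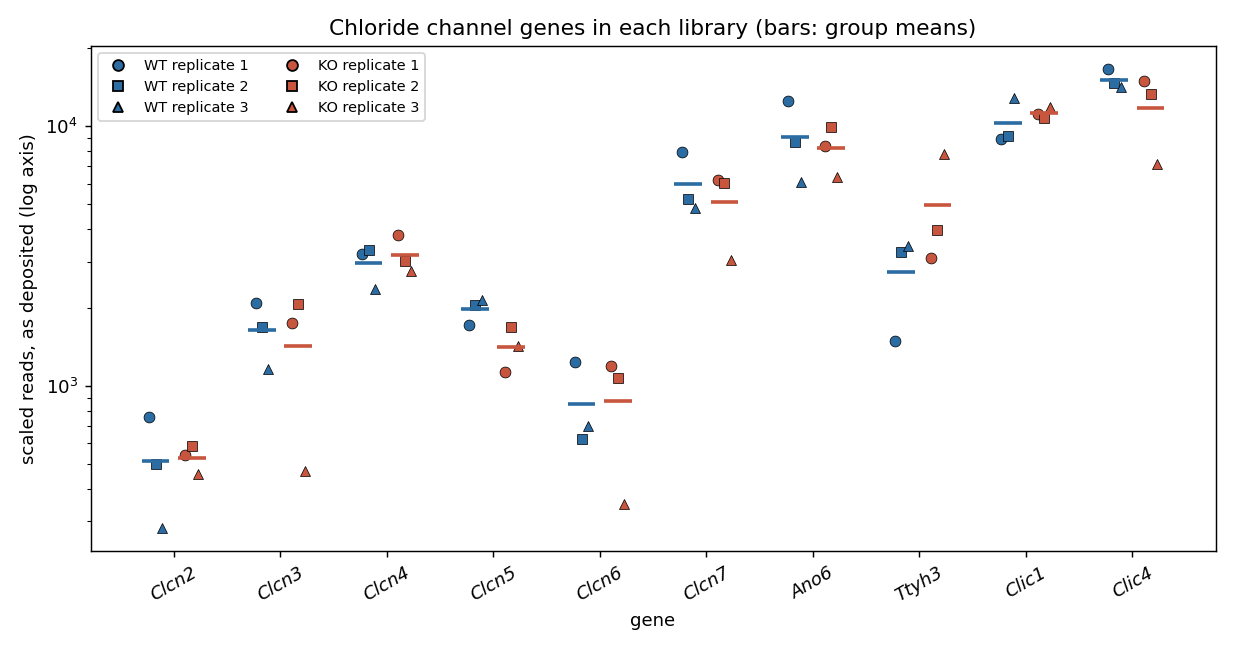
Scaled reads as deposited (log axis) of the 10 genes in each library, WT in blue and KO in red, one marker shape per replicate number, with bars at the group means. KO replicate 3 lies apart for Clcn3 at 470, Clic4 at 7182 and Ttyh3 at 7800. Only Clcn5 has all KO libraries below all WT libraries, as did 4.51% of all genes tested.

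Over the 10 genes, 0 passed an adjusted p of 0.05 in limma, and without adjustment 0 were under 0.05. Among all 12363 genes tested these shares were 0% and 3.62%. The median log2 fold change was -0.10 over the 10 genes and 0.00 over all genes, with 4 above 0 and 6 below, and the median size without sign was 0.21 in both. For 9 of the 10 genes the difference between group means was smaller than the larger group SD, and Clcn5 was the exception. By the authors' deposited table, of 12389 genes 65, or 0.525%, were past an FDR of 0.05, and 0 of these 10 were among them. The authors' deposited table gives log2 ratios of 0.86 for Ttyh3, -0.48 for Clcn5, -0.36 for Clic4 and -0.21 for Clcn3, each at an FDR of 0.99999. For Clcn6 the authors' deposited table has a ratio of 0.03, opposite in sign to the limma value of -0.09.

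**Figure D3:**
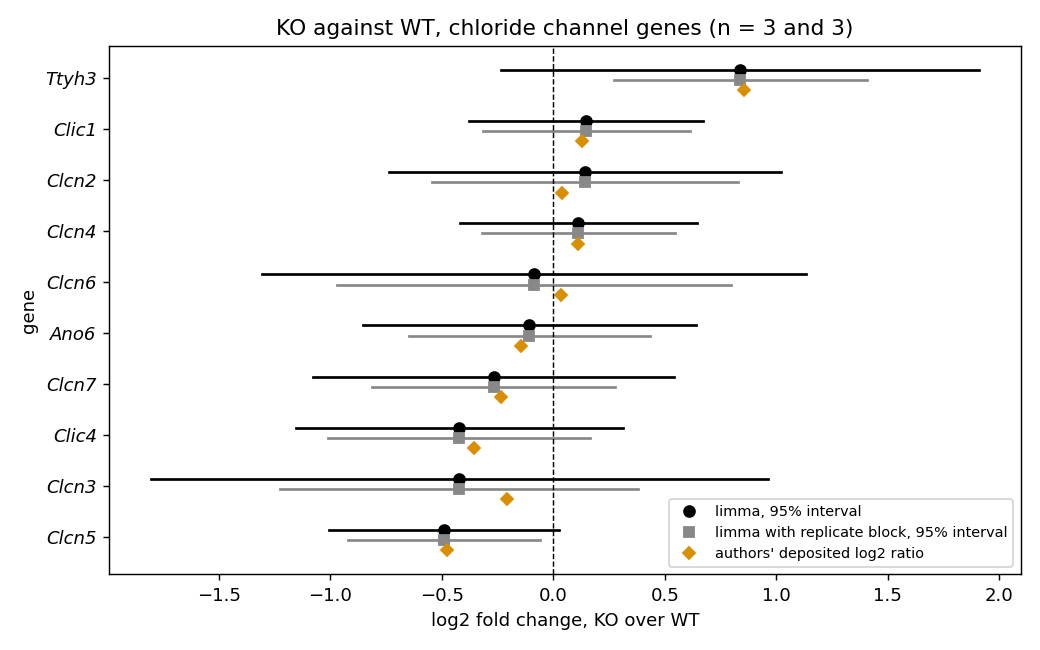
Log2 fold change of KO over WT for each gene with its 95% interval from limma (black) and from limma with the replicate number as a block (grey), and the authors' deposited log2 ratio (diamond). Every black interval crosses 0, and the grey intervals of Clcn5 (-0.92 to -0.06) and Ttyh3 (0.27 to 1.41) do not.

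Same-numbered libraries deviated together, so differences within a number were also read. Clcn5 was lower in KO in each of the 3 pairs, by log2 differences of -0.60, -0.28 and -0.59. Ttyh3 was higher in each, by 1.06, 0.28 and 1.18. Clic4 was lower in each, by -0.16, -0.13 and -0.98. The other 7 genes changed sign between pairs, as Clcn3 did at -0.26, 0.29 and -1.29 and Clcn6 at -0.05, 0.78 and -0.99. Of all genes tested, 15.7% were higher in all 3 pairs and 15.0% lower in all 3, against 1 and 2 of the 10. With the replicate block, 2 of the 10 genes, Clcn5 and Ttyh3, had an unadjusted p under 0.05 in limma, where 7.42% of all genes did. Neither passed over all genes, with blocked adjusted p-values of 0.631 for Clcn5 and 0.529 for Ttyh3 in limma.

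**Figure D4:**
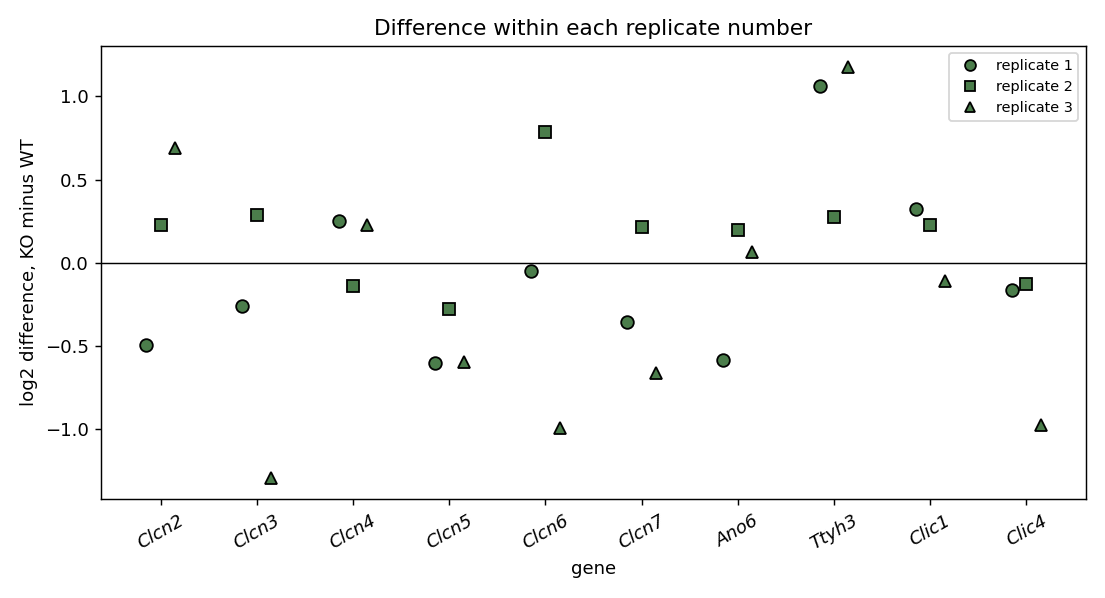
Log2 difference of KO minus WT within each replicate number for the 10 genes, one marker shape per number, with a line at 0. All 3 markers lie below 0 for Clcn5 and Clic4 and above 0 for Ttyh3, and KO replicate 3 gives Clcn3 its value of -1.29.

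Which library was lowest or highest within a genotype was counted over the 10 genes. KO replicate 3 was the lowest KO library for 7 of the 10 genes (Clcn2, Clcn3, Clcn4, Clcn6, Clcn7, Ano6 and Clic4), where this held for 39.7% of all genes tested. WT replicate 3 was the lowest WT library for 6 of the 10 (39.0% of all genes), and WT replicate 1 the highest for 6 (36.1%). Other genes went the other way. KO replicate 3 was the highest KO library for 2 (Ttyh3 and Clic1, 39.8% of all genes). WT replicate 3 was the highest WT library for 3 (Clcn5, Ttyh3 and Clic1, 38.8%). These counts of 10 genes were not tested against the shares of all genes. Both libraries numbered 3 had high levels of the smooth muscle actin gene Acta2, at 130984 scaled reads in WT and 59317 in KO against 10651 to 21829 in the other 4. The part of that difference in the channel genes was not tested.

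Promoters of the exchangers were searched for CACGTG, a palindrome bound by TFEB and other basic helix-loop-helix factors, because TFEB is known to act on genes of lysosomes. The windows come from RefSeq (GRCm38.p6) and run from 250 bases before to 50 bases after each annotated start, 300 bases in all. All 10 genes were matched, with 14 windows. CACGTG was found in 3 of the 14, those of Clcn4, Clcn6 and Clcn7, and in 7.15% of all 32851 windows. Clcn6 and Clcn7 each held it in 2 places, which 0.594% of all windows do. The longer form GTCACGTG, searched on both strands and containing the first, was present in the windows of Clcn6 and Clcn7 and in 2.25% of all windows. These windows are shown because they belong to the exchangers of the late endosome and lysosome and to the one endosomal exchanger with the motif, written 5′ to 3′ along the gene with CACGTG in capitals.

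Clcn6, chr4:148038764-148039063, minus strand, motif starting at -48 and -25 from the start:
Clcn6: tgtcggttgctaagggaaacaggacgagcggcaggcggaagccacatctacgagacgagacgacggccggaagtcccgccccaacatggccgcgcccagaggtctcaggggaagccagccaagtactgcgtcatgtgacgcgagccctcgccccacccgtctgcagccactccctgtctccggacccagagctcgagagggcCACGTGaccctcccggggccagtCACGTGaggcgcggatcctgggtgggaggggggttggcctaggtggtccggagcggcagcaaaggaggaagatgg
Clcn7, chr17:25133141-25133440, plus strand, motif starting at -15 and 8:
Clcn7: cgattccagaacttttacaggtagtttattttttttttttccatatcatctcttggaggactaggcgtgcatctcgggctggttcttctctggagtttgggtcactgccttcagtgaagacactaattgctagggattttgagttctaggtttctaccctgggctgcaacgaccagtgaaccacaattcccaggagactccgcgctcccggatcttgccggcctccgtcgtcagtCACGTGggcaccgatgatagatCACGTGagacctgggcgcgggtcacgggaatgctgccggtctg
Clcn4, chr7:7299508-7299807, minus strand, motif starting at -153:
Clcn4: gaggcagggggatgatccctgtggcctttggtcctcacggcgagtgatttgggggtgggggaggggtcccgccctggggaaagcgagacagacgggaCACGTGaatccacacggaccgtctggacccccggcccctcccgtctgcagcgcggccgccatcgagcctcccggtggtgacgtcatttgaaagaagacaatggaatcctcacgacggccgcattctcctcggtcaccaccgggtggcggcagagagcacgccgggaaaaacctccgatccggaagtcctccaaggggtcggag

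A match of letters is a description of these windows and not of a bound site.

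A wider list of 30 symbols of other chloride channel genes, in which Pacc1 also stood under its older symbol Tmem206, had 11 genes measured here, and limma found 0 of the 11 past the threshold in either direction and 0 with an unadjusted p under 0.05. Their median log2 fold change was -0.01, with 5 above 0 and 6 below. The 4 with the smallest p were Ano3, Slco2a1, Pacc1 and Clic5. Ano3, an anoctamin, read 838, 2113 and 2275 scaled reads in WT and 1831, 2699 and 2578 in KO (log2 fold change 0.55, SE 0.40), and without WT replicate 1 the fold change was 0.09. Slco2a1, a prostaglandin transporter also named as the core of the Maxi-Cl channel, read 11224, 7652 and 3446 in WT and 11696, 7248 and 11261 in KO (0.56, SE 0.45), with 0.09 without WT replicate 3. Pacc1, the proton-activated chloride channel, read 448, 664 and 681 in WT and 391, 564 and 508 in KO (-0.28, SE 0.27), with -0.13 without KO replicate 1. All of these overlapped between the genotypes.

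Clic5, the CLIC protein of hair cell and podocyte actin structures, was uneven between libraries. It read 849, 1613 and 26.1 in WT and 171, 218 and 39.9 in KO, so that both libraries numbered 3 were low and the other 2 pairs were lower in KO. The log2 fold change was -1.53 (SE 1.57, 95% interval -5.31 to 2.24), and with both libraries numbered 3 left out, as was chosen with the values in view, it was -2.58 with an adjusted p in limma of 0.424. Leaving out 1 library at a time moved it from -0.40 without WT replicate 2 and -0.79 without KO replicate 3 to -3.33 without WT replicate 3. In the authors' deposited table Clic5 had a log2 ratio of -2.54 at an FDR of 0.596. Ano1, the calcium-activated chloride channel known in vascular smooth muscle, was as uneven, at 996, 1067 and 42.7 in WT and 683, 3524 and 65.5 in KO, with a log2 fold change of 0.59 (SE 1.77). The remaining 6 genes measured (Ano8, Ano10, Ttyh2, Clca3a1, Clca3a2 and Clcc1) had log2 fold changes from -0.61 for Clca3a1 to 0.29 for Clca3a2. Clca3a1 and Clca3a2 are near copies of each other, so their values are uncertain where the counting could divide reads.

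Of 7 partner and related genes 6 were measured, and 0 passed in limma. Ostm1 read 9032, 6863 and 4989 in WT and 5803, 4051 and 3250 in KO. Only KO replicate 1 reached into the WT range. The log2 fold change of Ostm1 was -0.67 (SE 0.31, 95% interval -1.40 to 0.05), and the pairs gave -0.64, -0.76 and -0.62. With the replicate block its 95% interval was -1.08 to -0.27, at a limma adjusted p of 0.477. Ostm1 thus had a difference of nearly the same size in each pair, where Clcn7 had -0.36, 0.21 and -0.66. Lower levels in all 3 pairs held for 15.0% of all genes tested, and a blocked unadjusted p under 0.05 in limma for 7.42%. Xkr8, a caspase-activated phospholipid scramblase, read 482, 762 and 625 in WT and 428, 536 and 452 in KO (log2 fold change -0.38, SE 0.25), with -0.22 without WT replicate 2. It was also lower in KO in each pair, at -0.17, -0.51 and -0.47. Clns1a, whose product pICln was once proposed as a volume-regulated chloride channel and works in snRNP assembly, read 639, 950 and 1414 in WT and 1101, 1058 and 1778 in KO (0.42, SE 0.35), with 0.14 without WT replicate 1, 0.18 without KO replicate 3 and 0.71 without WT replicate 3. The other measured genes were Tmem9 and Tmem9b, whose products bind endosomal ClC exchangers, and the Golgi pH regulator Gpr89, at -0.23 (SE 0.44), -0.05 (SE 0.20) and 0.19 (SE 0.26).

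**Figure D5:**
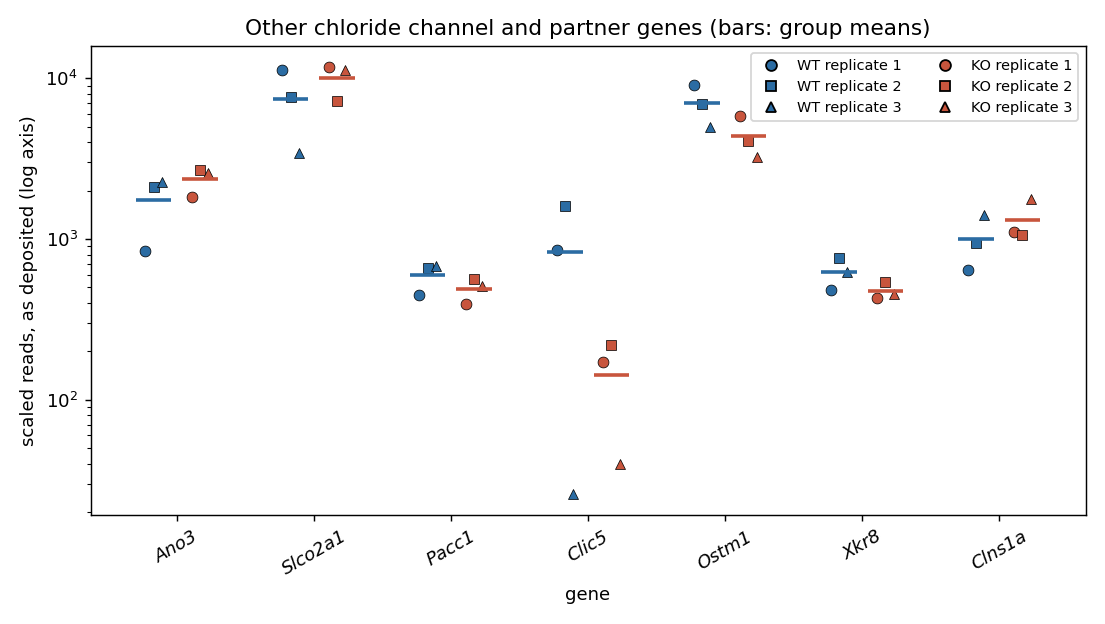
Scaled reads (log axis) by library for the 4 other chloride channel genes and the 3 partner genes with the smallest p in limma, WT in blue and KO in red, with bars at the group means. Clic5 spans 26.1 to 1613 within WT, and Ostm1 is lower in KO within each replicate number.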

How the data were processed

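Poly(A) RNA from 6 cultures was made into stranded libraries and read from both ends, per the labels' protocols. The submitters' processing notes name STAR, Partek, DESeq2 and the builds mm39 and GRCm39, without role or version. No source used here gives the counting settings. The deposited gene coordinates match GRCm38 (12341 of 12385 starts equal GENCODE M21), so GRCm38 is printed.

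The values used are a scaled signal, deposited by the authors under a raw count name. From the low values, 1 read was worth 0.712 to 1.19 in a library, and 83.0% to 92.4% of the low values lay within 0.05 of a whole read, too few to recover counts. Estimated depth was 31.0 to 47.9 M reads. Every gene with a row reached at least 142.8 scaled reads in some library, so genes of low level may have been left out before the deposit. A symbol without a row was counted as not measured. The p-value, FDR, log2 ratio and group means of the comparison are the authors' deposited columns, with KO over WT per the file headers.

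limma 3.58.1 (R 4.3.3, statmod 1.5.0) was fitted to log2(value + 2) with genotype alone, a mean trend and robust priors, for 12363 genes with at least 10 in at least 3 libraries. Two-sided p-values were adjusted over all genes by Benjamini-Hochberg, with 0.05 as the threshold. The script was tested on simulated data. Same-numbered libraries deviated together (correlations 0.43, 0.15 and 0.39, each over 0.1), so the numbers were taken as pairs although no label says what they mark. Levels per kb use the union of annotated exons in GENCODE M21.

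The genes and lists were chosen with earlier results of these data known. Values are given in full for the 10 genes, for Lrrc8a, and for the 4 other channel genes and 3 partners with the smallest p. Ano1, Xist, Ddx3y and Acta2 were added after their values were seen. The alternatives were 3 other scalings, other filters and pseudocounts, the second deposited table, prior settings, weights for library quality, a block for the replicate number, and the removal of each library. Leaving out both libraries numbered 3 was added after the data were seen.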

Additional observations from a re-analysis of the deposited data

How the results depend on the processing

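In limma, 0 of the 10 genes passed in the main fit or in any of the 19 alternatives. Over all genes, library quality weights called 30 and 1 was called without KO replicate 1, so that leaving out libraries gave 0 to 1. Every other alternative called 0, including the replicate block (0), with 917 genes at an unadjusted p under 0.05 where the main fit had 447. Clcn5, Ttyh3, Clic1 and Clic4 kept their sign in all 19, and the other 6 turned it in at least 1. With library quality weights the log2 fold change was -0.03 for Clcn4, 0.59 for Clcn6, 0.09 for Clcn7 and 0.04 for Ano6. Leaving out libraries gave ranges of -0.23 to 0.48 for Clcn2, -0.82 to 0.25 for Clcn3, -0.04 to 0.21 for Clcn4, -0.40 to 0.47 for Clcn6, -0.44 to 0.07 for Clcn7, -0.37 to 0.16 for Ano6 and -0.01 to 0.94 for Slco2a1. The same ranges were -0.63 to -0.34 for Clcn5, 0.45 to 1.12 for Ttyh3, 0.05 to 0.32 for Clic1, -0.62 to -0.10 for Clic4, -3.33 to -0.40 for Clic5, 0.09 to 0.81 for Ano3, -0.48 to -0.13 for Pacc1, -0.90 to -0.46 for Ostm1, -0.55 to -0.22 for Xkr8 and 0.14 to 0.71 for Clns1a. With library quality weights Ttyh3 was 0.34, Ano3 0.25, Clns1a 0.26 and Clic5 -2.94. The cause of these turns was not tested. The lowest adjusted p among the 10 genes was 0.207, for Clcn5 with the weights. The other per-library table gave -0.49 for Clcn5 and 0.84 for Ttyh3. Of its values, 97.97% lay within 0.1% of those used here, so its fit could hardly differ. Scaling by median-of-ratios factors also left 447 genes at an unadjusted p under 0.05 in limma, as in the main fit. The 19 alternatives are therefore not 19 separate checks. Counting error was at most 5.29% for the 10 genes, and that of each gene lay under the spread between its own libraries. With 3 libraries a group, intervals were as wide as -1.81 to 0.96 for Clcn3.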
